A study of Mus musculus with 24 samples.

Results

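RNA-seq of WT mouse embryonic stem cells (ESCs) was compared between day 0, when the cells were held in medium with leukemia inhibitory factor (D0), and day 6 of LIF withdrawal (D6). The members are the 6 libraries labelled WT, of 24 in the series: clones O4.1, O4.2 and O4.13 at D0 and the same clones, matched by name, at D6. All clones of the study derive from 1 parental 129-derived ESC line that carries eGFP after an internal ribosome entry site at the Pou5f1 (Oct4) locus, and each library was made from 1 clone. The cells were grown without feeders on gelatin, plated at low density in medium with LIF, and from the next day kept in medium without it until RNA was collected. Tet1-/- clones (2.1, 2.3 and 2.4 at D0 and 2.1, 2.2 and 2.4 at D6) and Tet2-/- clones (clones 1 and 2, as the titles number them on both days), edited with CRISPR/Cas9 in the same parental line and grown the same way, are used for 1 closing comparison. The replicates are subclones of 1 line, so their spread covers clonal and culture differences and not differences between ESC lines. Both days were deposited as separate tables, and handling that differed between days cannot be told apart from the withdrawal.

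LIF binds a receptor made of Lifr and gp130 (Il6st) and, through Jak kinases, activates the transcription factor Stat3, which keeps mouse ESCs self-renewing. In the embryo, cells that leave this naive state pass through a formative and a primed epiblast state before Nodal, Wnt, BMP and FGF signals direct them to primitive streak, mesoderm and endoderm, or, in the absence of those signals, to neuroectoderm. Withdrawal of LIF in serum medium removes the self-renewal signal without imposing a lineage, so a culture can hold cells at different stages and of different fates. In such bulk samples fewer cells of a type and less RNA per cell cannot be told apart.

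The 6 WT libraries held 18400463 to 29221712 counts. Levels are given as CPM, counts scaled to library size after TMM, for clones O4.1, O4.2 and O4.13 in that order. Differences are log2 fold changes (D6 minus D0, ± standard error, SE) from a quasi-likelihood model of edgeR fitted to all 24 libraries. To be called higher or lower, a gene had to change by over 2-fold with a Benjamini-Hochberg adjusted p below 0.05, and "rose" and "fell" are used only of called genes. The biological coefficient of variation was 11.4% between WT clones at D0 and 21.4% at D6. The defining ESC markers were present in each D0 library (8 markers summing to 5953, 6294 and 6210 CPM), whereas 4 mesoderm markers summed to 1.73 to 3.37 CPM and 4 trophectoderm markers to 1.05 to 2.18 CPM.

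Clone O4.2 stood apart from the other clones at D6. Among 9322 genes with a mean of at least 10 CPM, 80 were more than 2-fold above both other clones in O4.2 and 157 more than 2-fold below both (4.47% and 3.59% over all 15639 genes tested, whatever their level); the corresponding counts were 6 and 11 for O4.1 and 6 and 0 for O4.13. Of the 80 genes, 49 were genes that fell over withdrawal, and of the 157 genes, 144 were genes that rose. Over all tested genes 13.3% fell and 20.7% rose. The limit of 10 CPM at D6 favours genes that rose, and the D6 library of O4.2 entered these calls too. The split is therefore a description only. At D0 the clone was less distinct, with 7 genes above and 17 below. Naive pluripotency genes were higher in O4.2 than the mean of the other clones at D6 by a median of 1.10 on the log2 scale, with 16 of 19 members above both clones. Endoderm transcription factors were lower, with a median of -1.41 (10 of 12 members below both clones), as were primitive streak genes (median -0.84, 17 of 19 below both) and trophectoderm genes (median -0.96, 11 of 13 below both). All 24 tested Hox genes were below both other clones in O4.2. Over all 15639 tested genes O4.2 was above both clones at D6 for 5938 and below both for 6578. Results are therefore also given without the D6 library of O4.2, and counts of members of the 40 lists that rose or fell, where no such value follows, were the same without it.

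**Figure D1:**
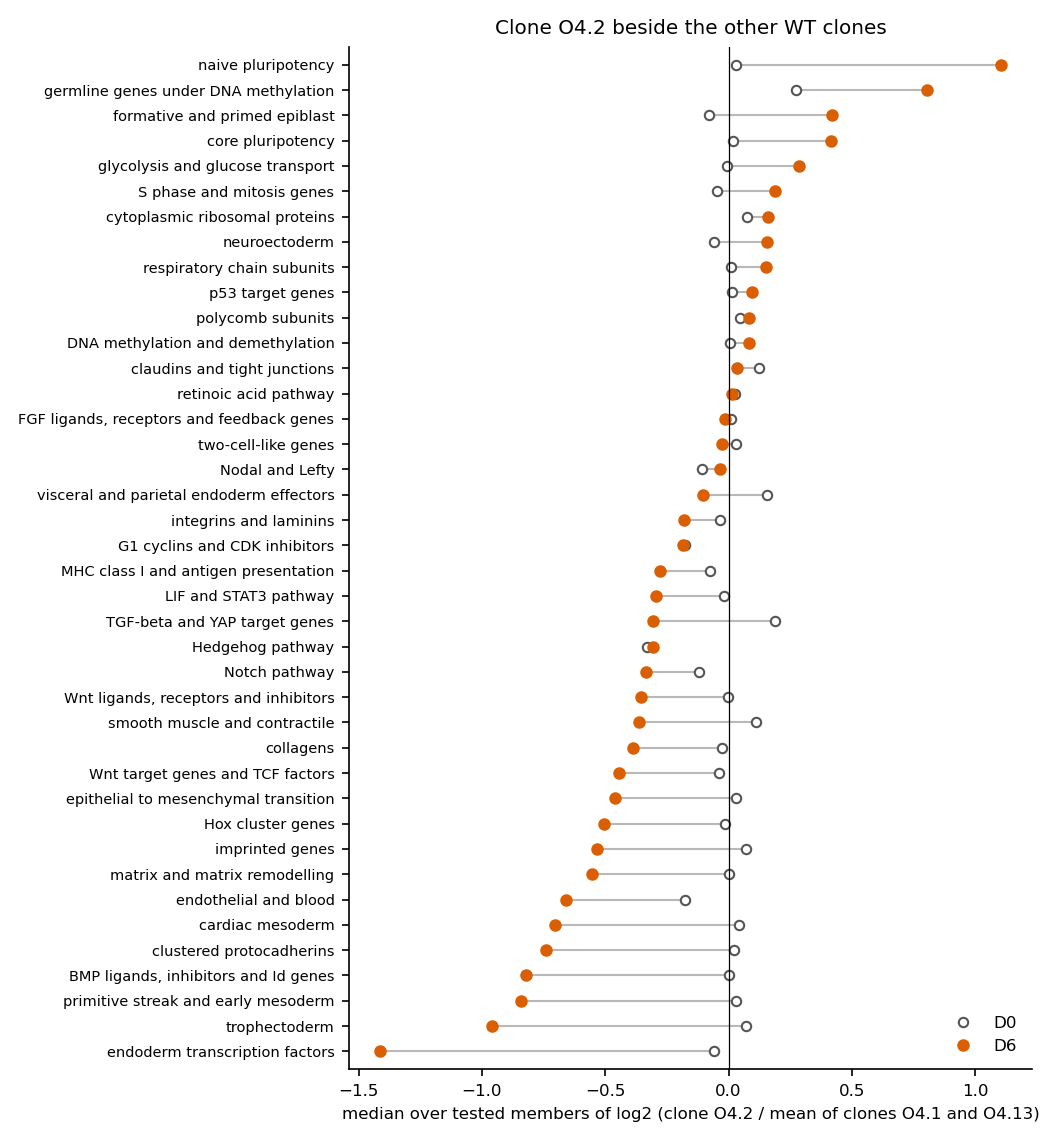
Median over the tested members of each gene list of the log2 ratio of clone O4.2 to the mean of clones O4.1 and O4.13 (x axis), at D0 (open circles) and at D6 (filled circles), for the lists named on the y axis. At D0 the medians lie between -0.33 and 0.27, while at D6 they run from -1.41 for endoderm transcription factors to 1.10 for naive pluripotency.

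Of 15639 genes tested, 5317 (34%) were called: 3244 (20.7%) were higher at D6 and 2073 (13.3%) lower. Without the D6 library of O4.2, 3321 were higher and 2301 lower. Genes that rose changed by a median of 2.06 on the log2 scale, and genes that fell by a median of 1.62. A change over 5 on the log2 scale was seen in 320 genes that rose and in 21 that fell. From a mean under 1 CPM at D0, 144 genes passed 10 CPM at D6, and 86 of the genes that rose had no read in any D0 library. In the opposite direction, 23 genes went from over 10 CPM to under 1 CPM, and 6 genes that fell had no read at D6. The genes that rose took 2.97% of the counts at D0 and 12.03% at D6, and the genes that fell 13.3% and 5.43%. The ranges of both days did not overlap for 3174 of the genes that rose and 2007 of those that fell; over all tested genes 70.7% did not overlap in either direction (35.8% above and 34.9% below D0).

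**Figure D2:**
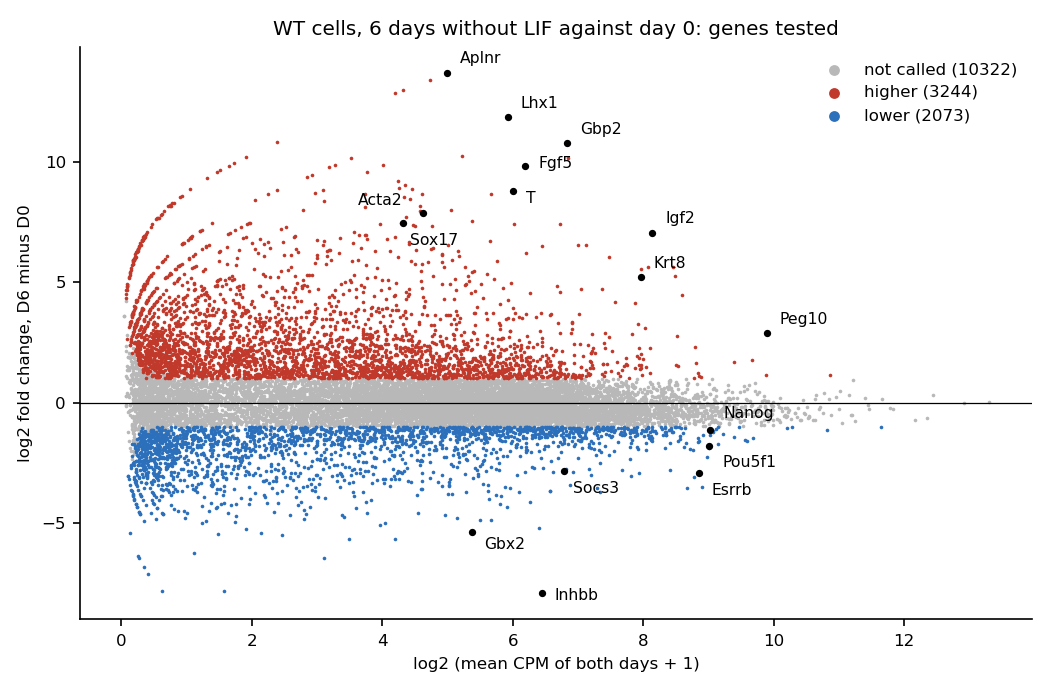
Log2 fold change of D6 against D0 (y axis) and mean level over both days, as log2 of CPM plus 1 (x axis), for the 15639 genes tested in WT; red points are the 3244 genes called higher, blue points the 2073 called lower and grey points the 10322 not called, with 16 genes of the text named. The largest rises belong to genes near 0 at D0, whose fitted fold change depends on the model; the genes that fell reach down to Inhbb at -7.92.

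The 40 gene lists below hold members known for a pathway, a cell state or a tissue, and each is described by its count of called members and its median, to be read beside the 20.7% higher and 13.3% lower and the median of 0.01 over all tested genes. A list with a called share near those values does not stand apart from the genome.

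**Figure D3:**
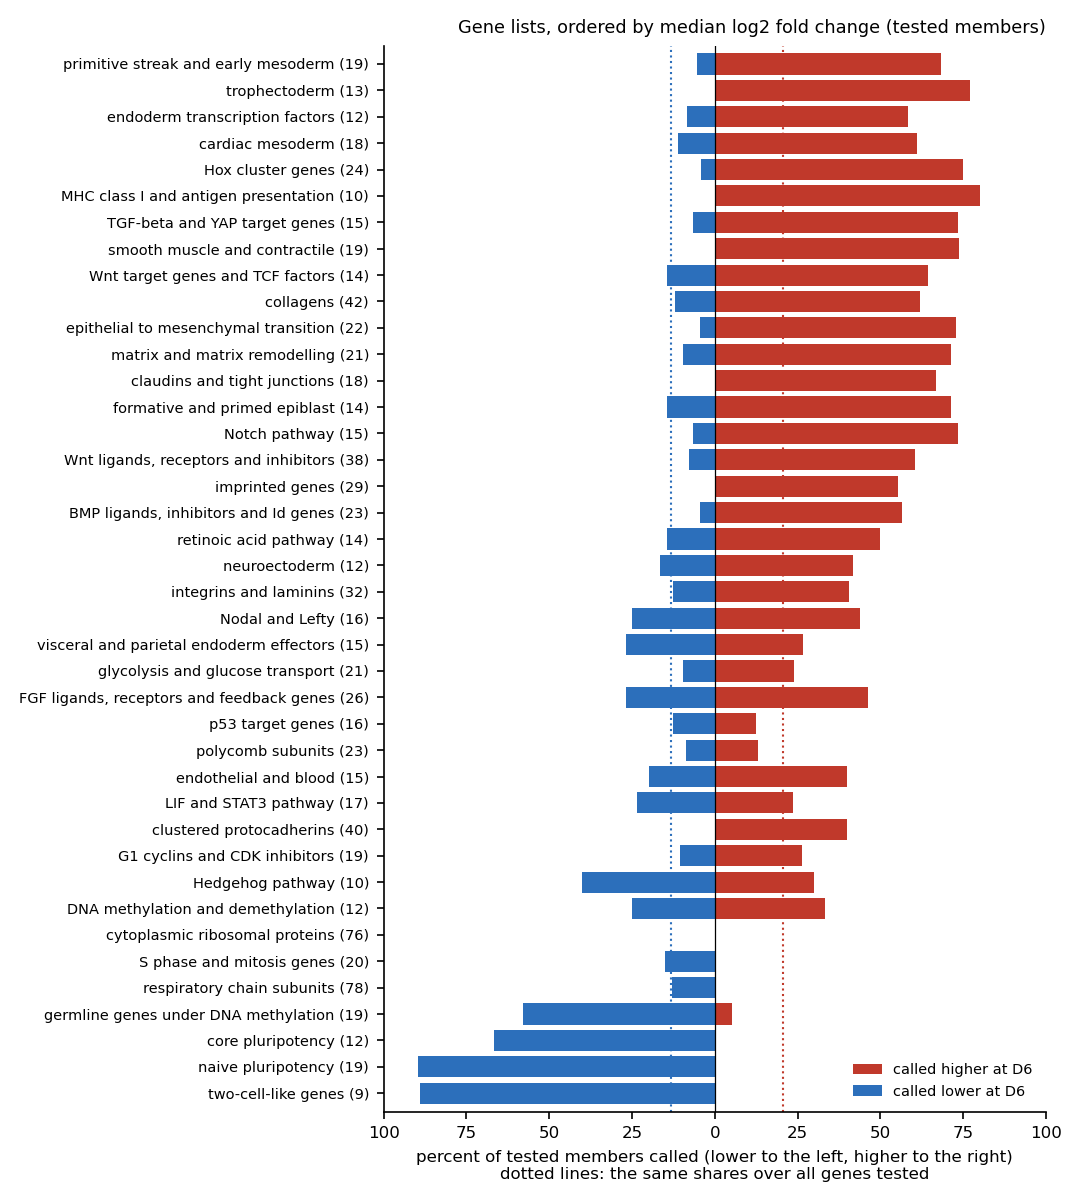
Percent of the tested members of each list called lower (blue, left) and higher (red, right) at D6 in WT, with the number of tested members in brackets; dotted lines mark 13.3% lower and 20.7% higher over all genes. Lists of pluripotency, germline and 2-cell-like genes extend to the left, and lists of mesoderm, trophectoderm, endoderm, contractile, Hox and antigen presentation genes to the right.

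Of 17 tested members of the LIF and STAT3 pathway, 4 rose (3 without O4.2 at D6) and 4 fell, with a median of 0.21. The direct Stat3 target Socs3, a feedback inhibitor of the pathway, was at 186, 200.4 and 187 CPM at D0 and 31.5, 17.1 and 31.3 CPM at D6 (log2 fold change -2.85 ± 0.26, edgeR adjusted p = 2.86e-08). All D6 libraries lay below all D0 libraries, and O4.2 was the lowest at D6. Bcl3, an IκB family protein induced by Stat3, went from 51.4, 51.0 and 52.8 CPM to 6.96, 4.75 and 7.73 CPM (log2 fold change -2.99 ± 0.21, edgeR adjusted p = 1.03e-09). The kinase gene Pim3 fell by a smaller amount (-1.14 ± 0.19), and its relative Pim1 was at 106, 80.3 and 80.4 CPM at D0 and 92.1, 111 and 106 CPM at D6 without a call. The cytokine receptor gene Il6ra also fell (-1.91 ± 0.32).

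Of the components that carry the signal, the receptor genes Lifr (-0.63 ± 0.17) and Il6st (0.23 ± 0.15) were not called. Stat3 was at 119, 102 and 118 CPM at D0 and 66.7, 48.8 and 74.9 CPM at D6 (log2 fold change -0.83 ± 0.18, edgeR adjusted p = 4.74e-04), lower at D6 in all clones but within the 2-fold limit. The kinase Jak2 rose from 7.07, 9.18 and 7.25 CPM to 40.6, 28.2 and 44.2 CPM (log2 fold change 2.27 ± 0.30, edgeR adjusted p = 3.21e-06), in all clones. Lif itself, encoding the withdrawn cytokine, rose from 3.19, 3.91 and 3.24 CPM to 10.3, 9.69 and 9.84 CPM (log2 fold change 1.53 ± 0.21, edgeR adjusted p = 5.39e-06). Socs1, another feedback inhibitor, rose (1.12 ± 0.23, 1.00 and no longer called without O4.13 at D6), and so did Osmr at levels below 0.4 CPM (1.66 ± 0.62), which lost its call with clone as a block (1.65) and without O4.2 at either day (1.301 without it at D0 and 1.44 without it at D6).

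The promoter of Socs3 is shown because its window, 250 bases before to 50 after the annotated start (RefSeq, GRCm38.p6), holds the motif TTCNNNGAA that Stat3 is known to bind (both strands searched; the motif is its own reverse complement). It is in 2 of the 17 promoters of the list. Capitals mark the motif, at chr11:117969492-117969540 on the minus strand with flanking bases.

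Socs3: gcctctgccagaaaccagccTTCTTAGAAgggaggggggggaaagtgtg

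The motif was found in 8.47% of all 27025 promoters of the table, in 6.78% of those of tested genes, in 5.07% of those of genes that rose and in 8.42% of those of genes that fell. In this window it lies 154 to 146 bases before the start. The match is a description of the sequence and no measure of binding.

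Of 12 core pluripotency genes, 8 fell and 0 rose (median -1.40), and of 19 naive pluripotency genes, 17 fell and 0 rose (median -2.75). With clone as a block 1 naive gene, Dppa3, also passed as higher. Pou5f1 (Oct4; chr17:35642982-35647721 on mm9), the factor at the centre of the pluripotency network, was at 856, 693 and 849 CPM at D0 and 207, 268 and 219 CPM at D6 (log2 fold change -1.79 ± 0.21, edgeR adjusted p = 5.51e-07). The groups did not overlap, and each D6 clone kept over 200 CPM. Its partner Sox2 went from 700.4, 709 and 667 CPM to 134, 385 and 139 CPM (log2 fold change -1.66 ± 0.34, edgeR adjusted p = 2.88e-04), so that O4.2 held more than the other clones. Nanog (chr6:122657507-122664651), a factor that stabilises the naive state, was at 693, 783 and 679 CPM at D0 and 207, 477 and 288 CPM at D6 (log2 fold change -1.15 ± 0.21, edgeR adjusted p = 9.15e-05). The O4.2 library was again the highest at D6, and without O4.1 at D6 the value was -0.90 and below the 2-fold limit. Utf1 (-1.68 ± 0.45), Dppa4 (-1.88 ± 0.31), Dppa2 (-3.38 ± 0.45), L1td1 (-2.24 ± 0.30) and the Nodal co-receptor Tdgf1 (-1.11 ± 0.14) fell as well. The RNA-binding protein gene Lin28a was at 445, 307 and 401 CPM at D0 and 757, 558 and 632 CPM at D6 (0.76 ± 0.13), higher in all clones but within the 2-fold limit, and Sall4 (0.25 ± 0.11) and Trim71 (0.065 ± 0.098) were not called.

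The naive list held larger falls. Esrrb, an orphan nuclear receptor of the naive network, was at 811, 846 and 791 CPM at D0 and 52.996, 201 and 65.3 CPM at D6 (log2 fold change -2.93 ± 0.39, edgeR adjusted p = 3.32e-06). Zfp42 (Rex1), a common reporter of the naive state, was at 804, 883 and 955 CPM at D0 and 44.5, 122 and 67.9 CPM at D6 (log2 fold change -3.49 ± 0.37, edgeR adjusted p = 2.42e-07). In both genes O4.2 kept more than the other clones at D6 and the days did not overlap. Gbx2, a homeobox gene downstream of Stat3, went from 62.0, 87.8 and 86.7 CPM to 2.02, 0.835 and 2.71 CPM (log2 fold change -5.40 ± 0.32, edgeR adjusted p = 1.41e-10), the largest fall in the list, and here O4.2 was the lowest of the D6 clones. Nr0b1 (Dax1; -4.135 ± 0.52), Tcl1 (-3.69 ± 0.35), Tfcp2l1 (-3.114 ± 0.34), Klf4 (-3.002 ± 0.33), Klf2 (-2.80 ± 0.38), Klf5 (-1.74 ± 0.22), Nr5a2 (-2.70 ± 0.38), Prdm14 (-1.94 ± 0.29) and Tbx3 (-1.65 ± 0.31) were further members that fell. Fgf4, the FGF that ESCs secrete themselves, was at 213, 211 and 213 CPM at D0 and 12.6, 91.2 and 23.9 CPM at D6 (-2.31 ± 0.45; -3.53 without O4.2 at D6). The members that did not pass were Dppa3, at 0.565, 1.19 and 1.73 CPM at D0 and 0.857, 2.94 and 5.16 CPM at D6, and Tfap2c, at 64.3, 83.2 and 54.3 CPM at D0 and 49.8, 73.2 and 41.8 CPM at D6.

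**Figure D4:**
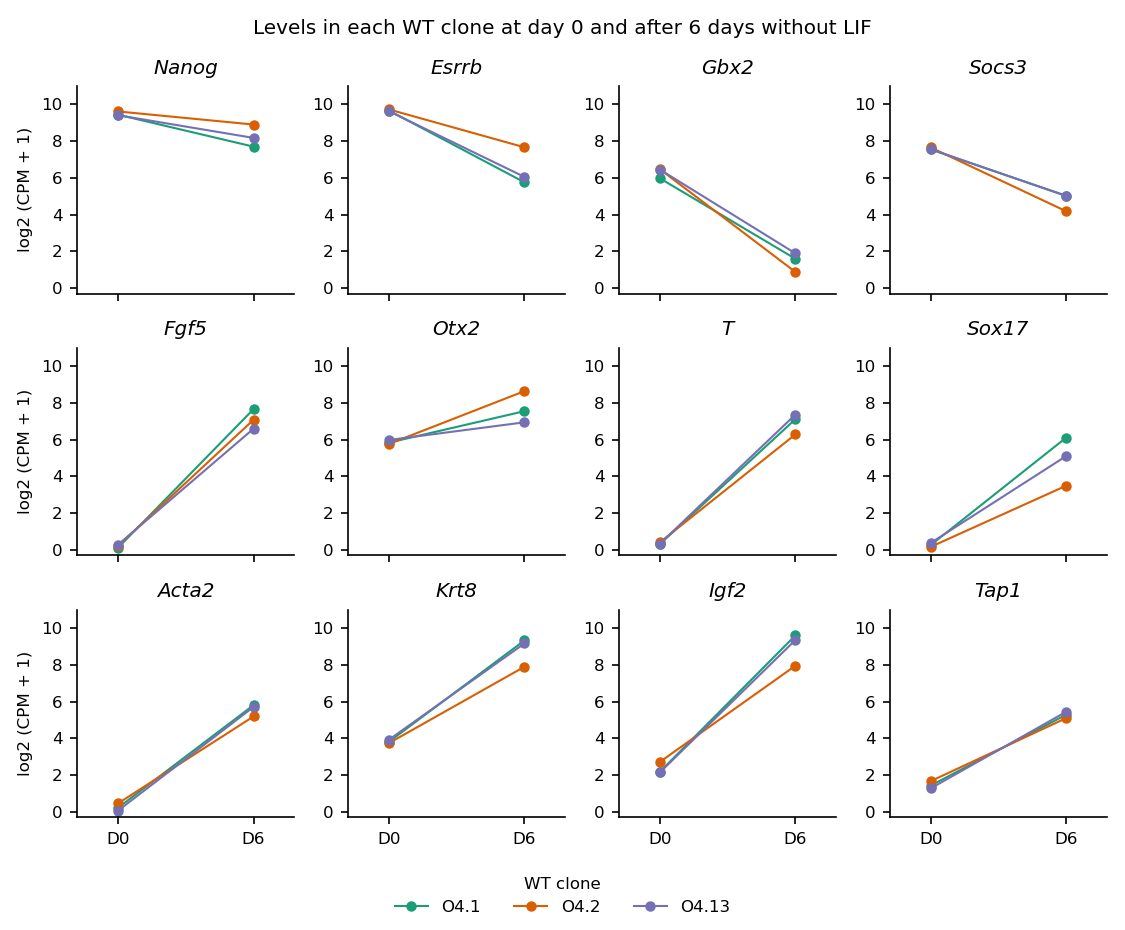
Level of 12 genes as log2 of CPM plus 1 (y axis) at D0 and D6 (x axis) in WT clones O4.1 (green), O4.2 (orange) and O4.13 (purple), with a line for each clone. Nanog, Esrrb, Gbx2 and Socs3 fell in every clone and the other 8 genes rose in every clone. At D6 O4.2 was highest for Nanog and Esrrb and lowest for T, Sox17, Krt8 and Igf2.

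The promoter window of Zfp42 is shown because it holds the octamer ATGCAAAT bound by Oct4, here in capitals and read on the opposite strand as ATTTGCAT, 186 to 179 bases before the start (RefSeq, GRCm38.p6, chr8:43307168-43307215, minus strand). The octamer, searched on both strands, is in 1 of the 12 naive and 0 of the 9 core genes with a promoter in the table, in 1.75% of all promoters of the table, 1.504% of those of genes that rose and 1.94% of those of genes that fell.

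Zfp42: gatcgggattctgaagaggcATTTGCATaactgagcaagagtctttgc

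Genes of the formative and primed epiblast, the states that follow naive pluripotency, rose in 10 of 14 cases and fell in 2 (median 1.83). Fgf5, the usual marker of primed epiblast, was at 0.0808, 0.165 and 0.216 CPM at D0 and 202, 135 and 96.1 CPM at D6 (log2 fold change 9.84 ± 0.62, edgeR adjusted p = 3.40e-10). It was near 0 in every D0 library and above 96 CPM in every D6 library. Otx2, a homeobox factor that drives entry into the formative state, went from 56.3, 53.5 and 62.4 CPM to 187, 399 and 122 CPM (log2 fold change 2.04 ± 0.34, edgeR adjusted p = 3.68e-05). The O4.2 library held over 2-fold more Otx2 than either other clone at D6, and it was also the highest for Pou3f1 (Oct6; 2.82 ± 0.31) and Sox3 (2.11 ± 0.40). Zic2 rose to a like level in all clones, from 13.3, 9.46 and 13.3 CPM to 164, 164 and 148 CPM (log2 fold change 3.73 ± 0.25, edgeR adjusted p = 9.82e-10). Lef1 (4.73 ± 0.43), Dnmt3b (1.63 ± 0.27), Grhl2 (1.59 ± 0.30) and Sfrp2 (1.52 ± 0.28) rose too. The members that fell were Foxd3 (-3.32 ± 0.55) and Tcf15 (-2.98 ± 0.37), both of which ESCs already express.

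Of 9 tested 2-cell-like genes, which mark the rare ESCs that resemble the cleavage embryo, 8 fell (7 without O4.2 at D6) and 0 rose, with a median of -3.48. In a fit to the 6 WT libraries alone 5 fell. Levels were low at both days: Zscan4d was at 0.969, 1.15 and 1.90 CPM at D0 and 0.151, 0.145 and 0.0637 CPM at D6 (log2 fold change -3.48 ± 0.77, edgeR adjusted p = 6.01e-04), and Zscan4a at 0.565, 1.52 and 1.86 CPM at D0 and 0.151, 0.0363 and 0.0318 CPM at D6 (-4.25 ± 0.74). Zscan4 genes are near-identical copies whose reads the counting could split, and they are therefore not independent members.

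Germline genes that are repressed by promoter methylation in somatic cells fell in 11 of 19 tested cases and rose in 1 (0 without O4.2 at D6, and 2 with clone as a block and without O4.13 at D0 or O4.1 or O4.13 at D6; median -1.29). The piRNA pathway gene Piwil2 was at 28.8, 35.4 and 33.2 CPM at D0 and 2.82, 6.79 and 3.31 CPM at D6 (log2 fold change -2.90 ± 0.30, edgeR adjusted p = 1.36e-07). The RNA-binding protein gene Dazl went from 11.8, 27.6 and 17.2 CPM to 1.41, 8.96 and 2.101 CPM (log2 fold change -2.16 ± 0.45, edgeR adjusted p = 3.74e-04). O4.2 had the highest level of both genes at both days. Mov10l1 (-2.75 ± 0.34), Rpl39l (-3.55 ± 0.48) and Tex11 (-2.15 ± 0.44) also fell. The helicase gene Ddx4 (-1.02 ± 0.27) lay at the limit and lost its call with DESeq2 and without O4.2 (-0.98) or O4.13 (-0.95) at D0 or O4.13 (-0.86) or O4.1 (-0.93) at D6. The single gene that rose, Sycp3 of the meiotic synaptonemal complex, was at 4.44, 7.08 and 4.45 CPM at D0 and 7.61, 19.996 and 7.96 CPM at D6 (1.16 ± 0.33), and without O4.2 at D6 its value was 0.55 and the call was lost.

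Of 12 genes for DNA methylation and demethylation, 4 rose and 3 fell (2 without O4.2 at D6; median -0.34). The dioxygenase gene Tet2 (chr3:133126643-133207354 on mm9) was at 93.9, 93.6 and 87.9 CPM at D0 and 12.9, 15.97 and 12.3 CPM at D6 (log2 fold change -2.74 ± 0.40, edgeR adjusted p = 1.00e-05). The D0 libraries lay far above the D6 libraries. Tet1 (chr10:62267318-62361866) was at 431, 220.3 and 367 CPM at D0 and 114, 125 and 108 CPM at D6 (log2 fold change -1.55 ± 0.66, edgeR adjusted p = 0.0457). The groups did not overlap, but the call was lost without any of the D6 libraries (-1.48 to -1.61), without O4.1 (-1.35) or O4.13 (-1.49) at D0 and with library totals in place of TMM (-1.41). Tet3 (chr6:83312367-83391672) moved the other way, from 5.05, 7.94 and 6.05 CPM to 19.2, 13.3 and 21.0 CPM (log2 fold change 1.49 ± 0.20, edgeR adjusted p = 2.73e-06).

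Among the methyltransferases the de novo enzyme Dnmt3b rose from 184, 265 and 208 CPM to 766, 697 and 565 CPM (log2 fold change 1.63 ± 0.27, edgeR adjusted p = 3.12e-05), and its cofactor Dnmt3l fell from 263, 249 and 250.2 CPM to 46.4, 63.0 and 58.0 CPM (log2 fold change -2.18 ± 0.31, edgeR adjusted p = 7.41e-06). Dnmt3a (-0.37 ± 0.21) and the maintenance enzyme Dnmt1 (-0.31 ± 0.11) were not called. Gadd45b (2.57 ± 0.23) and Uhrf2 (1.16 ± 0.16) rose, whereas Uhrf1, which guides Dnmt1 to replicated DNA, was at 427, 328 and 359 CPM at D0 and 231, 249.9 and 235 CPM at D6. Of 23 polycomb subunits 3 rose and 2 fell (4 and 3 without O4.2 at D6; 1 fell without O4.2 at D0 or O4.1 or O4.13 at D6; median 0.22), shares below those of all genes. Eed, the core subunit of PRC2 that reads the methylated histone, fell from 354, 384 and 387 CPM to 100.4, 111 and 99.7 CPM (log2 fold change -1.86 ± 0.12, edgeR adjusted p = 3.18e-10), with little spread between clones. Ezh2 (-0.35 ± 0.17), its catalytic partner, and Suz12 were not called; Mtf2 was near the limit (-1.01 ± 0.17) and was lost without O4.2 at D0 (-0.93) and without O4.13 (-0.86) or O4.1 (-0.85) at D6. Phf1 rose (1.78 ± 0.29).

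Among 16 members of the Nodal pathway 7 rose and 4 fell (median 0.60). The ligand gene Nodal was at 86.1, 36.0 and 78.3 CPM at D0 and 83.7, 53.1 and 82.6 CPM at D6 and was not called; O4.2 was the lowest clone at both days. Its convertase Furin rose (2.504 ± 0.24) while the other convertase, Pcsk6, fell (-2.04 ± 0.26). The co-receptors also moved apart: Cfc1 (Cryptic) went from 0.121, 0.123 and 0.345 CPM to 69.1, 16.7 and 52.8 CPM (log2 fold change 7.86 ± 0.84, edgeR adjusted p = 2.25e-07), and Tdgf1 (Cripto) from 711, 798 and 776 CPM to 351, 396 and 308 CPM (log2 fold change -1.11 ± 0.14, edgeR adjusted p = 1.98e-06). Tdgf1 was below the 2-fold limit when library totals replaced TMM (-0.97). The Nodal effector Foxh1 (1.83 ± 0.22) rose. The secreted inhibitor Lefty2 was at 232, 77.1 and 202 CPM at D0 and 88.1, 92.1 and 65.7 CPM at D6 (-1.06 ± 0.35). Its days overlapped through O4.2, which was low at D0, and the call was lost with clone as a block (-0.94) and without O4.1 (-0.77) or O4.13 (-0.92) at D0 or O4.13 at D6 (-0.89). Lefty1 was at 63.4, 13.2 and 58.2 CPM at D0 and 30.1, 40.9 and 18.2 CPM at D6 with no call.

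Of 23 members of the BMP pathway 13 rose (15 without O4.2 at D6) and 1 fell (median 1.42). Ligands moved differently from each other. Bmp2 was at 0, 0.329 and 0.216 CPM at D0 and 49.3, 11.5 and 55.8 CPM at D6 (log2 fold change 7.71 ± 1.08, edgeR adjusted p = 5.29e-06). Bmp5 was at 0, 0 and 0.0432 CPM at D0 and 20.5, 3.48 and 15.5 CPM at D6 (ratio of summed counts 907, 95% interval 162 to 35874). Bmp7 rose (2.43 ± 0.30), whereas Bmp4 was at 67.3, 88.9 and 61.3 CPM at D0 and 45.6, 23.6 and 55.6 CPM at D6 and was not called. The homeobox genes Msx1 (7.99 ± 0.81) and Msx2 (6.16 ± 0.68), known BMP targets, rose, with O4.2 lowest in both. Msx1 went from 0.283, 0.123 and 0.345 CPM to 79.7, 16.9 and 96.8 CPM. Of the Id genes, which encode inhibitors of helix-loop-helix factors, Id2 (2.58 ± 0.36) and Id3 (1.10 ± 0.24; not called without O4.13, 0.93, or O4.1, 0.96, at D6) rose, and Id1 was at 40.1, 37.4 and 50.7 CPM at D0 and 83.5, 44.2 and 102 CPM at D6 and passed as higher without O4.2 at D6 (1.12). Extracellular BMP inhibitors rose too: Nog (5.09 ± 0.64) and Fst (4.69 ± 0.36). Smad7, an inhibitory Smad, was the member that fell, from 135, 154 and 129 CPM to 48.2, 52.5 and 60.1 CPM (log2 fold change -1.38 ± 0.17, edgeR adjusted p = 1.11e-06), while Smad6, the other inhibitory Smad, rose (1.77 ± 0.38).

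Target genes of TGF-beta and of the YAP and TAZ coactivators rose in 11 of 15 cases and fell in 1 (median 2.46). The matrix protein gene Thbs1 went from 0.323, 1.85 and 1.51 CPM to 218, 212 and 196 CPM (log2 fold change 7.41 ± 0.46, edgeR adjusted p = 3.11e-10), at like levels in the 3 D6 clones. Cyr61, a YAP target, went from 7.47, 7.98 and 9.33 CPM to 256, 115 and 233 CPM (log2 fold change 4.61 ± 0.32, edgeR adjusted p = 1.32e-09). Ctgf (3.73 ± 0.24), Ankrd1 (6.39 ± 0.87), Amotl2 (2.85 ± 0.15) and the TAZ gene Wwtr1 (1.76 ± 0.24) rose. The ligands Tgfb2 (5.91 ± 0.64), Tgfb3 (3.81 ± 0.52) and Tgfb1 (1.38 ± 0.42) rose as well. Tgfbi was the member that fell (-2.49 ± 0.34).

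Of 38 tested Wnt ligands, receptors and inhibitors, 23 rose (24 without O4.2 at D6) and 3 fell (4 without it; median 1.73). Wnt3, the ligand that induces the primitive streak, was at 0.242, 0.453 and 0.605 CPM at D0 and 77.4, 46.3 and 119 CPM at D6 (log2 fold change 7.54 ± 0.53, edgeR adjusted p = 1.51e-09). Wnt8a was at 0.0808, 0.123 and 0.0432 CPM at D0 and 6.15, 8.93 and 7.64 CPM at D6 (log2 fold change 6.44 ± 0.61, edgeR adjusted p = 5.53e-08) and, like 8 of the 38 members, was highest in O4.2 at D6. Wnt5a (5.73 ± 0.92), Wnt4 (5.93 ± 0.57), Wnt5b (2.62 ± 0.50) and Wnt11 (2.42 ± 0.33) rose among the other ligands, and Wnt2 had no read at D0 and 0.958, 0.435 and 2.48 CPM at D6 (at least 33.3-fold). The receptor gene Fzd2 rose from 3.47, 2.39 and 6.26 CPM to 110.0, 102 and 118 CPM (log2 fold change 4.77 ± 0.33, edgeR adjusted p = 1.22e-09), and Fzd5 fell from 269.9, 226 and 260.1 CPM to 84.9, 64.1 and 45.3 CPM (log2 fold change -1.96 ± 0.21, edgeR adjusted p = 1.86e-07). Secreted antagonists went both ways. Dkk1 was at 0, 0 and 0.0864 CPM at D0 and 35.5, 6.31 and 33.5 CPM at D6 (ratio of summed counts 885, 95% interval 245 to 7312). Frzb went from 0.0808, 0.0823 and 0 CPM to 38.4, 10.02 and 24.9 CPM (8.67 ± 0.88), and Sfrp1 from 228, 143 and 219.7 CPM to 91.2, 52.9 and 50.4 CPM (-1.61 ± 0.28).

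Transcriptional targets of Wnt signalling and TCF factors rose in 9 of 14 cases and fell in 2 (median 2.24). Axin2, a feedback target in most tissues, was at 7.59, 8.64 and 8.55 CPM at D0 and 52.996, 39.9 and 81.4 CPM at D6 (log2 fold change 2.81 ± 0.29, edgeR adjusted p = 1.71e-07). Sp5 went from 0.525, 0.782 and 0.648 CPM to 78.9, 23.8 and 82.9 CPM (log2 fold change 6.56 ± 0.55, edgeR adjusted p = 1.14e-08). Both genes were higher at D6 in every clone. Lgr5 (5.15 ± 0.71), Rnf43 (3.92 ± 0.33), Nkd1 (3.47 ± 0.45) and Tcf7 (1.66 ± 0.23) rose. Cdx1 (-2.53 ± 0.32) and the secreted inhibitor Notum (-3.04 ± 0.36) fell, and Ccnd1 was at 208, 224 and 222 CPM at D0 and 140.3, 111 and 152 CPM at D6.

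FGF ligands, receptors and feedback genes split: 12 of 26 rose and 7 fell (8 without O4.2 at D6; median 0.33). Fgf8, a ligand of the primitive streak, went from 0.162, 0.206 and 0.345 CPM to 117, 67.1 and 113 CPM (log2 fold change 8.69 ± 0.41, edgeR adjusted p = 1.40e-11), and Fgf10 from 5.98, 4.11 and 3.32 CPM to 79.6, 16.7 and 72.7 CPM (log2 fold change 3.65 ± 0.68, edgeR adjusted p = 1.12e-04). Fgf4 (-2.31 ± 0.45) and Fgf18 (-2.31 ± 0.56) fell. The receptor gene Fgfr2 rose from 1.98, 5.02 and 2.03 CPM to 36.8, 43.1 and 35.9 CPM (log2 fold change 3.68 ± 0.34, edgeR adjusted p = 4.49e-08), and Fgfr1 rose (1.05 ± 0.16; not called without O4.13, 0.99, or O4.1, 0.93, at D6). Genes induced by ERK did not move together. Spry4, a feedback inhibitor, went from 276, 299 and 285 CPM to 28.7, 23.7 and 21.7 CPM (log2 fold change -3.54 ± 0.36, edgeR adjusted p = 1.14e-07), Etv4 (-2.44 ± 0.23) and Spry2 (-1.34 ± 0.22) fell, Spry1 (1.64 ± 0.16) rose, and Dusp6 was at 90.5, 102 and 91.5 CPM at D0 and 106, 99.8 and 100.9 CPM at D6.

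In the Notch pathway 11 of 15 genes rose (10 without O4.2 at D6) and 1 fell (median 1.80). The ligand Dll1 (3.44 ± 0.64), the receptors Notch3 (2.401 ± 0.20) and Notch2 (1.80 ± 0.12) and the target Hey1 (2.28 ± 0.40) rose. Notch3 went from 54.4, 37.9 and 42.4 CPM to 263, 187 and 262 CPM (edgeR adjusted p = 1.08e-08). Notch4 fell from 22.2, 16.7 and 17.0 CPM to 1.82, 4.21 and 1.91 CPM (log2 fold change -2.81 ± 0.30, edgeR adjusted p = 2.19e-07), and the target Hes1 was at 55.7, 56.2 and 48.3 CPM at D0 and 107, 69.8 and 105 CPM at D6.

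Of 10 Hedgehog genes 3 rose and 4 fell (3 without O4.2 at D6; median 0.00410). The target and effector Gli1 went from 39.2, 17.8 and 36.9 CPM to 4.64, 3.52 and 4.997 CPM (log2 fold change -2.83 ± 0.43, edgeR adjusted p = 1.24e-05), and Gli2 (-1.21 ± 0.081) fell. The repressor Gli3 went from 10.2, 10.9 and 8.20 CPM to 53.8, 38.8 and 55.4 CPM (log2 fold change 2.34 ± 0.14, edgeR adjusted p = 2.51e-10), and the transducer Smo rose (1.504 ± 0.17). The receptor Ptch1, which is also a target, was at 63.6, 40.2 and 59.8 CPM at D0 and 64.7, 74.5 and 57.0 CPM at D6.

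Of 14 retinoic acid genes 7 rose and 2 fell (3 without O4.2 at D6; median 0.82). Cyp26a1, the enzyme that degrades retinoic acid, was at 0.0404, 0.0823 and 0.0432 CPM at D0 and 123, 22.8 and 72.5 CPM at D6 (log2 fold change 10.25 ± 1.01, edgeR adjusted p = 8.81e-08), and the D6 level in O4.2 was the lowest. Dhrs3 (3.36 ± 0.44) and Rdh10 (1.99 ± 0.26) rose. The receptor Rarg (-1.61 ± 0.17) and the binding protein Crabp1 (-2.17 ± 0.37) fell, while the synthesising enzyme Aldh1a2 was at 2.87, 3.74 and 4.15 CPM at D0 and 2.72, 2.21 and 1.97 CPM at D6.

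Among lineage lists, primitive streak and early mesoderm had the highest median (4.82), with 13 of 19 members higher and 1 lower. T (Brachyury; chr17:8627288-8635361 on mm9), the defining gene of the streak, was at 0.242, 0.329 and 0.259 CPM at D0 and 138, 77.2 and 164 CPM at D6 (log2 fold change 8.81 ± 0.65, edgeR adjusted p = 2.82e-09). Eomes, required for mesoderm and endoderm, was at 6.38, 7.36 and 7.08 CPM at D0 and 261, 96.7 and 232 CPM at D6 (log2 fold change 4.82 ± 0.41, edgeR adjusted p = 1.29e-08). Both genes were highest in O4.1 or O4.13 and lowest in O4.2, which still lay far above D0. The homeobox gene Lhx1 (chr11:84331479-84338923), of the anterior streak and its derivatives, was at 0.0404, 0.0411 and 0 CPM at D0 and 180.0, 54.2 and 124 CPM at D6 (ratio of summed counts 4113, 95% interval 1138 to 33967). Mixl1 went from 1.62, 2.63 and 1.295 CPM to 89.0, 30.4 and 118 CPM (log2 fold change 5.41 ± 0.65, edgeR adjusted p = 9.39e-07), and Mesp1, of the nascent mesoderm, from 0.162, 0.288 and 0.0864 CPM to 24.9, 9.0002 and 34.9 CPM (log2 fold change 6.96 ± 1.05, edgeR adjusted p = 1.30e-05). Evx1 (6.32 ± 0.79) and Gsc (4.01 ± 0.37) mark opposite ends of the streak, and both rose. Of later paraxial genes, Tbx6 reached 1.36, 0.907 and 2.13 CPM, Msgn1 reached 0.504, 0.399 and 5.51 CPM, with most of it in O4.13 and no call without that library at D6 (2.93), and Meox1 was at 0.525, 0.699 and 0.864 CPM at D0 and 0.706, 0.508 and 0.828 CPM at D6. Cdx1 was the member that fell.

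Of 18 cardiac mesoderm genes 11 rose and 2 fell (1 without O4.2 at D0; median 3.23). The transcription factor gene Hand1 (chr11:57642207-57646320), of the early heart field and of extraembryonic mesoderm, was at 0.242, 1.65 and 0.345 CPM at D0 and 124, 38.2 and 219.9 CPM at D6 (log2 fold change 7.41 ± 0.90, edgeR adjusted p = 1.10e-06). Gata4 went from 2.38, 1.65 and 1.51 CPM to 91.9, 20.4 and 84.0 CPM (log2 fold change 5.14 ± 0.60, edgeR adjusted p = 6.73e-07). Tbx20 (6.37 ± 0.83), Hand2 (ratio of counts 460.1, 82.2 to 18208) and Isl1 (3.95 ± 0.998) rose. Actc1, the cardiac actin, went from 0, 0 and 0.0432 CPM to 10.4, 8.82 and 17.9 CPM (ratio of summed counts 928, 95% interval 166 to 36707). The cardiac factor gene Nkx2-5 was at 0.727, 0.576 and 0.734 CPM at D0 and 1.01, 0.762 and 1.15 CPM at D6 without a call, and the contractile genes Myh6 and Myl7 were not called either. The members that fell were the sarcomere gene Ttn, from 16.6, 27.1 and 17.2 CPM to 1.26, 1.45 and 1.37 CPM (log2 fold change -3.89 ± 0.43, edgeR adjusted p = 3.87e-07), and Ryr2, the cardiac calcium release channel (-1.07 ± 0.28), which lost its call without O4.2 at D0 (-0.87) and with library totals in place of TMM (-0.92).

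Endoderm transcription factors rose in 7 of 12 cases (8 without O4.2 at D6) and fell in 1 (median 3.85). Sox17 (chr1:4481009-4486494) was at 0.202, 0.123 and 0.302 CPM at D0 and 68.5, 10.3 and 33.6 CPM at D6 (log2 fold change 7.46 ± 0.92, edgeR adjusted p = 1.29e-06), and Foxa2, a pioneer factor of endoderm, at 0.242, 0.123 and 0.0864 CPM at D0 and 40.1, 9.11 and 15.3 CPM at D6 (log2 fold change 7.09 ± 0.75, edgeR adjusted p = 1.96e-07). O4.1 was the highest D6 clone for both genes and O4.2 the lowest. Gata6 (5.90 ± 0.80) and Foxa1 (3.39 ± 0.44) rose. Sox7 fell (-2.84 ± 0.38), and Hnf4a was at 2.46, 5.39 and 2.81 CPM at D0 and 5.19, 0.508 and 2.58 CPM at D6. Effector genes of visceral and parietal endoderm were split: 4 of 15 rose and 4 fell (median 0.35). In the 6 WT libraries alone, and without O4.2 at D0 or O4.1 or O4.13 at D6, 2 fell. Pdgfra (5.65 ± 0.74), Dab2 (3.63 ± 0.43) and the endocytic receptor Lrp2 (2.83 ± 0.35) rose. Transferrin (Trf; -4.04 ± 0.45) and the basement membrane chain Lama1 (-2.22 ± 0.29) fell. Afp, a visceral endoderm product, had no read at D0 and 0.0504, 0.109 and 0 CPM at D6, and Ttr went from no read to 0.756, 0.145 and 0.286 CPM; neither passed the filter on low counts.

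Of 13 trophectoderm genes 10 rose (9 without O4.2 at D6) and 0 fell (median 4.54). The master factor Cdx2 (chr5:148112381-148118846), which also acts in posterior mesoderm, was at 0.162, 0.123 and 0.173 CPM at D0 and 15.3, 3.38 and 26.0 CPM at D6 (log2 fold change 6.57 ± 0.94, edgeR adjusted p = 6.88e-06). Gata3 went from 0, 0.165 and 0.216 CPM to 14.9, 7.11 and 19.5 CPM (log2 fold change 6.74 ± 0.63, edgeR adjusted p = 4.85e-08). The keratins of simple epithelia, Krt8 and Krt18, rose too. Krt8 was at 13.004, 12.3 and 14.2 CPM at D0 and 642, 237 and 573 CPM at D6 (log2 fold change 5.20 ± 0.37, edgeR adjusted p = 1.51e-09), and Krt18 changed by 5.54 ± 0.35. Genes of later placental cells were not detected: Tpbpa and Prl3d1 had no read in any WT library. Elf5, a trophoblast stem cell factor, reached 0.202, 0.363 and 0.0955 CPM and lost its call without O4.2 at D6 (2.97), and Tead4 was at 25.2, 21.9 and 17.0 CPM at D0 and 23.9, 12.99 and 23.01 CPM at D6. Krt8, Krt18 and Hand1 are also expressed in other epithelia and mesoderm.

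Endothelial and blood genes rose in 6 of 15 cases (7 without O4.2 at D6) and fell in 3 (4 without it; median 0.21). The VEGF receptor genes Kdr, at 1.53, 3.54 and 2.16 CPM at D0 and 81.3, 20.3 and 119 CPM at D6 (log2 fold change 4.93 ± 0.82, edgeR adjusted p = 3.77e-05), and Flt1 (6.44 ± 0.46) rose. Cdh5 was at 0.242, 0.206 and 0.605 CPM at D0 and 1.01, 0.218 and 2.04 CPM at D6, Tal1 at 2.87, 1.48 and 2.504 CPM at D0 and 0.958, 1.16 and 1.94 CPM at D6, and both were without a call. Cdh5 passed as higher with clone as a block (1.502) and without O4.13 at D0 (2.27) or O4.2 at D6 (2.14). Hbb-bh1, an embryonic globin, had no read at D0 and 0, 0 and 0.191 CPM at D6. Pecam1, which ESCs express, fell from 101.2, 111 and 91.5 CPM to 11.3, 57.9 and 21.9 CPM (log2 fold change -1.73 ± 0.37, edgeR adjusted p = 4.18e-04), with O4.2 the highest at D6.

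Of 12 tested neuroectoderm genes 5 rose (4 without O4.2 at D6) and 2 fell (1 without O4.13 at D0 or at D6; median 0.80). Sox1, the earliest marker of neuroectoderm, was at 4.56, 2.80 and 4.88 CPM at D0 and 1.92, 1.31 and 1.43 CPM at D6 (-1.40 ± 0.49); it lost its call without O4.13 at D0 (-1.26), O4.13 at D6 (-1.33) or O4.2 at D6 (-1.297). Pax6 was at 0.485, 0.165 and 0.389 CPM at D0 and 0.303, 0.653 and 0.318 CPM at D6 without a call, and Neurog2 had no read in any WT library. The neuronal tubulin Tubb3 fell from 210.2, 124 and 187 CPM to 6.86, 22.6 and 10.9 CPM (log2 fold change -3.68 ± 0.45, edgeR adjusted p = 1.24e-06). The neural stem cell filament Nes, also found in mesoderm, rose from 9.98, 15.1 and 10.6 CPM to 109, 71.2 and 116 CPM (log2 fold change 3.05 ± 0.25, edgeR adjusted p = 9.71e-09), and Pax3, without a read at D0, reached 0.656, 0.980 and 0.700 CPM.

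The 39 Hox genes are arrayed in clusters and are switched on in order along the body axis. Of 24 tested, 18 rose and 1 fell (median 3.00), while 15 did not pass the filter on low counts. In the 6 WT libraries alone 8 rose. In groups 1 to 4, 8 of 12 genes were tested and rose, in groups 5 to 8 7 of 11 (4 without O4.1 or O4.13 at D6), and in groups 9 to 13 9 of 16 were tested, of which 3 rose and 1 fell. The filter sets these counts in part: 7 of the genes that rose had at most 1 read at D0 over all clones and passed through D6, while Hoxa7, with 14 reads at D0 and 12 at D6, was not tested. Summed levels went from 1.29 to 13.5 CPM for groups 1 to 4, from 0.581 to 4.31 CPM for groups 5 to 8 and from 6.58 to 6.74 CPM for groups 9 to 13. The largest summed level at D6 belonged to cluster B, which went from 2.17 to 11.4 CPM. Hoxb2 was at 0.0404, 0 and 0 CPM at D0 and 4.135, 0.907 and 4.68 CPM at D6 (ratio of summed counts 233, 95% interval 41.4 to 9231), and Hoxb3 had no read at D0 and 2.27, 0.762 and 2.13 CPM at D6 (at least 40.6-fold). Levels stayed below 5 CPM for every Hox gene, and neighbouring genes of a cluster overlap, so that their counts are not independent.

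Smooth muscle and contractile genes rose in 14 of 19 cases and fell in 0 (median 2.45). Tagln (SM22), an actin-binding protein of smooth muscle, was at 2.26, 3.41 and 3.15 CPM at D0 and 322, 187 and 313 CPM at D6 (log2 fold change 6.54 ± 0.34, edgeR adjusted p = 3.08e-11). Acta2, the smooth muscle actin, was at 0.162, 0.370 and 0.0432 CPM at D0 and 55.0, 35.6 and 51.3 CPM at D6 (log2 fold change 7.90 ± 0.72, edgeR adjusted p = 3.39e-08). Both genes rose in all clones by amounts far above the spread between clones. Tpm1 went from 24.6, 29.2 and 22.4 CPM to 542, 307 and 473 CPM (log2 fold change 4.12 ± 0.22, edgeR adjusted p = 3.50e-11), and Cnn1 (4.79 ± 0.27), Cnn2 (2.45 ± 0.23), Myl9 (3.95 ± 0.30) and Cald1 (2.89 ± 0.19) rose. Myocd, the coactivator that drives the smooth muscle program, went from 0, 0 and 0.0432 CPM to 2.37, 0.980 and 2.23 CPM (ratio of summed counts 132, 95% interval 23.3 to 5249). The late marker Myh11 reached 1.26, 0.871 and 1.37 CPM (1.48 ± 0.50) and lost its call without O4.1 (1.20) or O4.13 (1.37) at D0. The factor through which Myocd acts, Srf, was at 71.5, 57.2 and 75.6 CPM at D0 and 89.5, 86.8 and 107 CPM at D6 (0.47 ± 0.14), higher in all clones but within the 2-fold limit.

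The promoter windows of Srf, Cnn2 and Myl9 are shown because, of 13 genes of this list with a promoter in the table, these 3 hold the CArG box that Srf binds. The motif has a pair of C bases, 6 A or T bases and a pair of G bases, and both strands were searched. It is in 1.57% of all promoters of the table, 1.89% of those of genes that rose and 1.14% of those of genes that fell. Capitals mark it, and the windows are from RefSeq, GRCm38.p6: chr17:46556215-46556264 (minus strand, first Srf site), chr17:46556195-46556244 (minus strand, the other Srf site), chr10:79988524-79988573 (plus strand, Cnn2) and chr2:156775283-156775332 (plus strand, Myl9). Acta2 and Cnn1 have no match in their windows.

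Srf, first site: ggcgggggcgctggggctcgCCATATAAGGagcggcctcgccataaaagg
Srf, other site: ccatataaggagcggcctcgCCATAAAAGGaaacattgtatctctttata
Cnn2: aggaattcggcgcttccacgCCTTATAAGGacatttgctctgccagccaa
Myl9: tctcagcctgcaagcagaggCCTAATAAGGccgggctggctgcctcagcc

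Genes of the epithelial to mesenchymal transition rose in 16 of 22 cases (18 without O4.2 at D6) and fell in 1 (0 without O4.2 at D0 or at D6; median 2.21), and the members that rose were of both kinds. Among mesenchymal genes, Cdh2 (N-cadherin) was at 4.48, 3.99 and 3.02 CPM at D0 and 164, 44.2 and 151 CPM at D6 (log2 fold change 4.96 ± 0.64, edgeR adjusted p = 2.34e-06). Snai1, the repressor of E-cadherin at the streak, was at 3.84, 3.91 and 3.80 CPM at D0 and 32.3, 10.7 and 40.0 CPM at D6 (log2 fold change 2.85 ± 0.53, edgeR adjusted p = 1.09e-04). Zeb2 (5.89 ± 0.69), Cdh11 (6.68 ± 0.78) and Twist1 (2.21 ± 0.33) rose, and O4.2 was the lowest clone for each. Vim was at 323, 535 and 353 CPM at D0 and 525, 221 and 641 CPM at D6 without a call. Among epithelial genes, Cdh1 (E-cadherin) was at 467, 413 and 417 CPM at D0 and 716, 681 and 557 CPM at D6 (0.59 ± 0.16), so no fall was measured. Epcam (1.60 ± 0.14), the splicing regulator Esrp1 (2.99 ± 0.27), Crb3 (2.62 ± 0.29) and Ocln (2.205 ± 0.21) rose, and for Epcam and Esrp1 O4.2 was the highest clone. Zeb1 was the member that fell, at 17.6, 22.4 and 16.5 CPM at D0 and 10.6, 4.46 and 11.6 CPM at D6 (-1.09 ± 0.38), and it lost its call without O4.2 at D0 (-0.94) or at D6 (-0.76). Of 18 claudin and tight junction genes 12 rose and 0 fell (median 1.90). Cldn6, typical of embryonic epithelia, was at 18.4, 16.8 and 21.2 CPM at D0 and 276, 244 and 192 CPM at D6 (log2 fold change 3.66 ± 0.23, edgeR adjusted p = 2.96e-10), and Cldn7 at 2.26, 2.18 and 1.60 CPM at D0 and 66.1, 67.2 and 51.0 CPM at D6 (log2 fold change 4.92 ± 0.24, edgeR adjusted p = 2.03e-11).

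Extracellular matrix genes rose more often than they fell: 26 of 42 collagens rose and 5 fell (median 2.22), and 15 of 21 other matrix and remodelling genes rose and 2 fell (median 2.13). Col1a1, the fibrillar collagen of mesenchyme, was at 1.66, 1.81 and 2.33 CPM at D0 and 118, 53.3 and 260.4 CPM at D6 (log2 fold change 6.22 ± 0.58, edgeR adjusted p = 4.25e-08). Its partner Col1a2 rose (5.16 ± 0.67). Of the basement membrane collagens, Col4a5 (5.28 ± 0.44), Col4a6 (ratio of counts 124, 42.2 to 605), Col4a4 (2.38 ± 0.90, not called with DESeq2 or without O4.2 at D0, 1.86, or O4.13 at D6, 2.26) and Col4a2 (1.66 ± 0.26) rose, while Col4a3 (1.84 ± 0.97) was not called and Col4a1, at 93.9, 120.0 and 76.3 CPM at D0 and 203, 118 and 184 CPM at D6 (0.80 ± 0.23), was within the 2-fold limit. The members that fell include Col6a4 (-2.18 ± 0.36) and Col5a3 (-1.47 ± 0.45). Fibronectin (Fn1; chr1:71632094-71699774) was at 1363, 1049 and 1086 CPM at D0 and 2709.7, 1475 and 3512 CPM at D6 (log2 fold change 1.14 ± 0.38, edgeR adjusted p = 0.0129). The lowest D6 clone, O4.2, lay only slightly above D0, and without O4.13 at D6 the value was 0.87 and not called. Tnc went from 0.0404, 0 and 0 CPM to 10.03, 3.45 and 11.7 CPM (ratio of summed counts 607, 95% interval 109 to 24001), and Loxl2 (2.21 ± 0.45), Mmp2 (2.13 ± 0.26) and Timp2 (2.59 ± 0.33) rose while Timp1 fell (-1.90 ± 0.22).

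Integrins and laminins rose in 13 of 32 cases (14 without O4.2 at D6) and fell in 4 (median 0.62). Laminin chains moved in opposite directions: Lama5 went from 107, 74.6 and 96.3 CPM to 384, 287 and 324 CPM (log2 fold change 1.84 ± 0.14, edgeR adjusted p = 3.57e-09) and Lama1 from 104, 88.0 and 100.1 CPM to 22.4, 18.7 and 21.9 CPM (log2 fold change -2.22 ± 0.29, edgeR adjusted p = 3.00e-06). The laminin-binding linker Nid1 fell (-2.18 ± 0.20), and the beta chain Lamb1 rose (1.92 ± 0.16). Itga6, a laminin receptor of ESCs, was at 231, 199.8 and 221 CPM at D0 and 169.6, 199.9 and 174 CPM at D6, and Itga8 (3.81 ± 0.48) and Itgb5 (1.42 ± 0.17) rose. Of 40 tested clustered protocadherins 16 rose and 0 fell (median 0.11). These comprise 14 genes of the alpha cluster, which share their last exons, so that 1 gain may be counted many times; Pcdha10 was at 0.283, 0.453 and 0.345 CPM at D0 and 0.807, 0.944 and 1.34 CPM at D6.

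Of 29 tested imprinted genes, expressed from 1 parental allele, 16 rose (18 without O4.2 at D6) and 0 fell (median 1.53). Igf2, the fetal growth factor, was at 3.51, 5.55 and 3.41 CPM at D0 and 777, 247 and 653 CPM at D6 (log2 fold change 7.07 ± 0.56, edgeR adjusted p = 5.80e-09). H19, the noncoding RNA of the same locus read from the other parental allele, was at 3.43, 3.58 and 2.59 CPM at D0 and 57.2, 50.2 and 134 CPM at D6 (log2 fold change 4.65 ± 0.46, edgeR adjusted p = 7.95e-08). The members at this locus rose together, with O4.2 the lowest clone for Igf2 and O4.13 the highest for H19. Peg3 (5.25 ± 0.44) and Peg10 (chr6:4697306-4710514; 2.88 ± 0.31) were other paternally expressed genes that rose. Peg10 was at 208, 313 and 161 CPM at D0 and 1664, 978 and 2384 CPM at D6 (edgeR adjusted p = 2.59e-07). Cdkn1c (2.24 ± 0.31), Grb10 (1.57 ± 0.34), Igf2r (1.09 ± 0.11) and Meg3 (1.87 ± 0.20), read from the maternal allele in most tissues, rose too, while Snrpn was at 206, 199.9 and 175 CPM at D0 and 188, 251.1 and 185 CPM at D6 and Slc38a4 at 345, 411 and 370.3 CPM at D0 and 332, 297 and 428 CPM at D6.

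Genes of MHC class I and antigen presentation rose in 8 of 10 tested cases and fell in 0 (median 3.00). The peptide transporter gene Tap1 was at 1.70, 2.18 and 1.42 CPM at D0 and 38.1, 33.4 and 42.7 CPM at D6 (log2 fold change 4.42 ± 0.28, edgeR adjusted p = 4.08e-10). Psmb8, a subunit of the immunoproteasome, was at 0.242, 0.0411 and 0.0432 CPM at D0 and 40.5, 40.7 and 59.4 CPM at D6 (log2 fold change 8.67 ± 0.64, edgeR adjusted p = 4.84e-09). The D6 clones were close to each other in both genes. B2m, the light chain of class I molecules, went from 11.5, 12.4 and 14.6 CPM to 76.4, 53.7 and 64.6 CPM (log2 fold change 2.34 ± 0.23, edgeR adjusted p = 7.84e-08), and H2-K1 (2.37 ± 0.16) and Tapbp (3.63 ± 0.21) rose. H2-D1 was at 30.01, 26.8 and 27.2 CPM at D0 and 44.4, 51.9 and 53.9 CPM at D6, and class I heavy chain genes are similar enough that reads may be shared. The class I transactivator Nlrc5 was at 0.848, 0.782 and 0.820 CPM at D0 and 0.656, 0.544 and 0.923 CPM at D6.

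G1 genes were called at shares near those of all genes, while S phase and mitosis genes were called less often. Of 19 G1 cyclins and CDK inhibitors 5 rose (6 without O4.2 at D6 and 3 without it at D0) and 2 fell (median 0.055). Ccne1 (cyclin E) went from 269, 244 and 283 CPM to 61.1, 95.7 and 69.8 CPM (log2 fold change -1.81 ± 0.22, edgeR adjusted p = 8.53e-07), and Ccnd3 from 344, 446 and 421 CPM to 139, 138 and 154 CPM (log2 fold change -1.49 ± 0.11, edgeR adjusted p = 1.73e-09), both in all clones. The inhibitors Cdkn1c (2.24 ± 0.31), Cdkn2b (1.55 ± 0.44), Cdkn1b (1.03 ± 0.25; 0.995 without O4.2 and 0.91 without O4.13 at D0, neither called) and Cdkn1a (1.05 ± 0.18; 0.93 and not called without O4.2 at D0) rose, as did Ccnd2 (1.89 ± 0.53). Of 20 S phase and mitosis genes 0 rose and 3 fell (median -0.43), namely Mcm5 (-1.43 ± 0.14), Pcna (-1.22 ± 0.12) and Rrm2 (-1.08 ± 0.16). Mki67 was at 285, 282 and 250.4 CPM at D0 and 437, 385 and 413 CPM at D6. Of 16 p53 target genes 2 rose (3 without O4.2 at D6 and 1 without it at D0) and 2 fell (0 with library totals in place of TMM; median 0.28), shares at or below those of all genes. Btg2 (1.26 ± 0.15) and Cdkn1a rose, and Bax (-1.08 ± 0.15) and Sesn2 (-1.07 ± 0.20) fell.

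Glycolysis genes were called at shares near those of all genes, while most ribosomal and respiratory chain genes were lower at D6 by small steps. Of 21 genes of glycolysis and glucose transport 5 rose and 2 fell (1 with clone as a block, which left out Hk1, and 1 without O4.1 at D0 or at D6 or O4.13 at D0; median 0.34). Slc2a1, the glucose transporter, was at 574, 665 and 531 CPM at D0 and 1269, 1469.6 and 1143 CPM at D6 (log2 fold change 1.13 ± 0.17, edgeR adjusted p = 1.15e-05), and the lactate exporter Slc16a3 rose (1.85 ± 0.39). Ldha and Pkm were not called. Of 76 cytoplasmic ribosomal protein genes 0 were called and the median was -0.34, and without the 2-fold limit 53 passed as lower. Of 78 respiratory chain subunits 10 fell (14 without O4.2 and 6 without O4.1 at D6) and 0 rose (1 without O4.1 at D0). Their median was -0.66. The falls were near the 13.3% of all genes, but the rises lay below the 20.7%. Without the 2-fold limit 70 of these subunits passed as lower and 2 as higher. At that setting 5132 of all 15639 tested genes were lower and 5234 higher. Uqcrc1 of complex III (-1.05 ± 0.082; -0.95 and not called without O4.1 at D6) and Ndufb10 of complex I (-1.32 ± 0.10) were among those that fell.

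The largest rises, among called genes with a D6 mean of at least 10 CPM, were in genes near 0 at D0. Aplnr (chr2:84976517-84980079), the apelin receptor of early mesoderm, was at 0 CPM in all clones at D0 and 80.6, 26.8 and 77.0 CPM at D6 (at least 1452-fold higher, edgeR adjusted p = 2.16e-05). The adhesion protein gene Pcdh7 (chr5:58109260-58520590) was at 0 CPM in all clones at D0 and 68.6, 21.0 and 63.2 CPM at D6 (at least 1199-fold higher, edgeR adjusted p = 2.61e-07). The secreted Nodal, BMP and Wnt antagonist Cer1 (chr4:82527655-82531052) was at 0 CPM in all clones at D0 and 66.6, 20.9 and 26.5 CPM at D6 (at least 834-fold higher, edgeR adjusted p = 9.59e-07). All of these were lowest in O4.2 among the D6 clones. Amer3 (at least 843-fold), Lhx1, Cyp26a1, Klhl6 (ratio of counts 1505, 269.7 to 59477) and 3 interferon-inducible genes, Gbp2, Gbp2b and Oasl2, complete the 10. Gbp2 (chr3:142283566-142300972), a guanylate-binding protein, was at 0.0808, 0.0411 and 0.259 CPM at D0 and 263, 163 and 255 CPM at D6 (log2 fold change 10.78 ± 0.66, edgeR adjusted p = 2.32e-10); Gbp2b is a near-identical neighbour, so the reads of both are uncertain.

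The largest fall was that of Inhbb (chr1:121312042-121318825), the beta B subunit of activin and inhibin, which went from 141, 203 and 170.2 CPM to 0.706, 1.13 and 0.318 CPM (log2 fold change -7.92 ± 0.30, edgeR adjusted p = 1.20e-12). The next were Myo1f (chr17:33692664-33744709; -6.48 ± 0.43), an unconventional myosin, Hal (chr10:92951513-92982049; -5.68 ± 0.56), which degrades histidine, and the helix-loop-helix gene Msc (chr1:14743427-14746047; -5.67 ± 0.59). Myo1f went from 13.8, 13.9 and 17.2 CPM to 0.0504, 0.290 and 0.127 CPM, so that little was left in any clone. Gbx2, Rpl10l (-5.21 ± 0.47), Accsl (-5.1098 ± 0.55), H2-M5 (-5.02 ± 0.36), Enox1 (-4.90 ± 0.48) and the small GTPase gene Mras (-4.90 ± 0.27) complete the 10. Rpl10l is a retrocopy of a ribosomal protein gene, and its reads may belong in part to its parent gene.

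Measured in CPM and not in fold, the largest gains were in Slc2a3, Peg10, Fn1, Eef2 and Myh9. Slc2a3 (chr6:122677827-122751658), a glucose transporter, was at 1734, 1823 and 1359 CPM at D0 and 3317, 3083 and 3044 CPM at D6 (log2 fold change 0.94 ± 0.18, edgeR adjusted p = 1.97e-04), just under the 2-fold limit, and it passed without O4.2 at D0 (1.02). Myh9 (chr15:77591017-77672605), the nonmuscle myosin heavy chain, was at 400.3, 354 and 360.5 CPM at D0 and 1436, 1033 and 1290.3 CPM at D6 (log2 fold change 1.75 ± 0.13, edgeR adjusted p = 3.57e-09). The largest losses in CPM were in Rn45s, Ncl, Hsp90aa1, Trim28 and Atp5b. Trim28 (chr7:13609501-13616384), the corepressor that silences retroelements, was at 2557, 2254 and 2655 CPM at D0 and 1020.0, 1271 and 1046 CPM at D6 (log2 fold change -1.16 ± 0.12, edgeR adjusted p = 1.04e-07). Hsp90aa1 (-1.03 ± 0.20) was near the limit and lost its call without O4.13 at D0 (-0.98) and without O4.13 (-0.96) or O4.1 (-0.94) at D6. Rn45s, the ribosomal RNA precursor, which poly(A) selection removes in part, was at 6066, 7922 and 5142 CPM at D0 and 3632, 4856 and 3747 CPM at D6.

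Defining markers of other cell types were summed in each library as a description of what the D6 cultures held. The 8 ESC markers summed to 1181, 2774 and 1343 CPM at D6, below all D0 libraries. Smooth muscle markers went from 3.31 to 5.68 CPM at D0 to 401, 244 and 393 CPM at D6, and mesoderm markers from 1.73 to 3.37 CPM to 253, 118 and 319 CPM. Endoderm markers reached 288, 77.0 and 205 CPM, though Afp and Ttr stayed below 1 CPM, and trophectoderm markers reached 54.0, 23.6 and 60.8 CPM. The endoderm sum includes Gata4, at 91.9, 20.4 and 84.0 CPM, which is also counted among the cardiac genes. Mesenchymal markers rose in 6 of 8 cases and fell in 1, while Lum was at 0 CPM in all clones at D0 and 0.202, 0.218 and 0 CPM at D6. Lum was not called (4.87), but among other settings it passed as higher with clone as a block (4.98). Neuroectoderm markers went from 215, 127 and 192 CPM, nearly all of it Tubb3, to 9.08, 24.6 and 12.7 CPM, with Neurog2 at 0 at both days. O4.2 had the lowest sum at D6 for the smooth muscle, mesoderm, endoderm, trophectoderm, mesenchymal and endothelial markers, and the highest for the ESC and neuroectoderm markers. The part of cell mixture in the changes of the gene lists was not tested.

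The change over withdrawal was then compared between WT and the single knockouts, as the difference of the log2 fold changes (an interaction in the same fit). The comparisons share the WT libraries. No gene was called for Tet1-/- (0 of 15639; edgeR, smallest adjusted p = 0.131), although 1200 genes had an unadjusted p under 0.05, 378 of them with a difference of more than 2-fold, and DESeq2 called 12. Clones 2.3 and 2.2 of Tet1-/- were each present at 1 day only. Tet1 itself was at 93.4, 126 and 358 CPM at D0 and 82.4, 154 and 190.2 CPM at D6 in the Tet1-/- clones, overlapping WT at both days, so that its transcript level is no check of the deletion. Tet2 was at 20.9 and 23.2 CPM at D0 in the Tet2-/- clones, below all WT clones, and at 15.9 and 16.6 CPM at D6, where WT was at 12.3 to 15.97 CPM. For Tet2-/-, 1357 genes (8.68%) were called: the log2 fold change was more positive in WT for 803 (5.13%) and more negative in WT for 554 (3.54%). Of the 803 genes, 599 were called higher in WT, 12 lower and 192 neither, and of the 554 genes 364 were called lower in WT, 29 higher and 161 neither. The WT change is a term of the interaction, so these splits are set in part by the selection. Over all tested genes 20.7% were higher and 13.3% lower in WT. The count of 1357 depends on single libraries. It was 2096 without O4.2 at D6, 798 without O4.13 and 891 without O4.1 at D6. It was 408 and 766 without Tet2-/- clones 1 and 2 at D0, and 595 without either Tet2-/- clone at D6.

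Some pluripotency genes had a more negative change in WT: 6 of 19 naive genes and 4 of 12 core genes were called in that direction, and 0 the reverse, with median interactions of -0.86 and -0.97. Primitive streak genes had 5 of 19 members with a more positive change in WT (median 2.55), trophectoderm 5 of 13 (median 2.90), endoderm factors 4 of 12 (median 2.13) and TGF-beta and YAP targets 7 of 15 (median 1.15), with 0 more negative in each. Formative genes had 6 of 14 members with a more negative change in WT and 0 more positive (median -1.34). These counts depend on single libraries too. Without O4.2 at D6 they were 12 for naive and 6 each for core, streak and endoderm genes. Without Tet2-/- clone 1 at D0 they were 2 for naive genes, 3 for trophectoderm genes, 5 for TGF-beta and YAP targets and 1 each for core, streak, endoderm and formative genes, and the streak count was 0 without Tet2-/- clone 2 at D0 or at D6. Of the genes with the largest interactions, Sox17 went from a mean of 0.209 to 37.5 CPM in WT and from 0.217 to 0.268 CPM in Tet2-/- (interaction 7.14, edgeR adjusted p = 0.0216). Nrp1, a semaphorin and VEGF co-receptor, went from 0.855 to 0.483 CPM in Tet2-/-, while in WT it was at 0.687, 1.19 and 1.12 CPM at D0 and 83.9, 11.1 and 77.3 CPM at D6. The means of Fgf10 moved in opposite directions, from 7.79 to 1.21 CPM in Tet2-/- and from 5.98, 4.11 and 3.32 CPM to 79.6, 16.7 and 72.7 CPM in WT (interaction 6.31, edgeR adjusted p = 0.0033). Capn6 (6.64) and Hand1 (6.30) complete the 5.

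Inhbb was lower at D6 in both genotypes, at a mean of 0.719 CPM in WT and 6.79 CPM in Tet2-/- (interaction -3.62, edgeR adjusted p = 1.83e-04). Zfp936, a zinc finger gene, was at 53.4, 63.5 and 65.5 CPM at D0 and 5.50, 4.79 and 3.02 CPM at D6 in WT and went from 45.3 to 40.9 CPM in Tet2-/- (-3.64). Enox1 (-3.63) and Msc (-3.48) were lower at D6 in both, and more so in WT. Sema6a, a membrane semaphorin, was higher at D6 in both: its mean went from 0.320 to 52.1 CPM in WT and from 0.0292 to 71.2 CPM in Tet2-/- (-3.50). A Tet2-/- library had no read of it at D0, and its interaction was -6.57 without Tet2-/- clone 2 and -2.83 without Tet2-/- clone 1 at D0. Some of these calls rest on single libraries. Capn6 lost its call without any of the libraries but O4.2 at D6 (6.30 to 7.28), and Hand1 without any Tet2-/- library or O4.13 at D0 (5.97 to 6.43). Sema6a lost it in 5 cases, the others being Tet2-/- clone 1 at D6 and O4.13 and O4.2 at D0 (-3.04 to -3.44), and Sox17 in 3, without Tet2-/- clone 1 (7.36) or 2 (6.76) at D0 or clone 2 at D6 (6.52). Nrp1 lost it without Tet2-/- clone 2 at D0 (5.91), and Msc (-3.26) and Zfp936 (-3.41) without Tet2-/- clone 1 at D0.

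**Figure D5:**
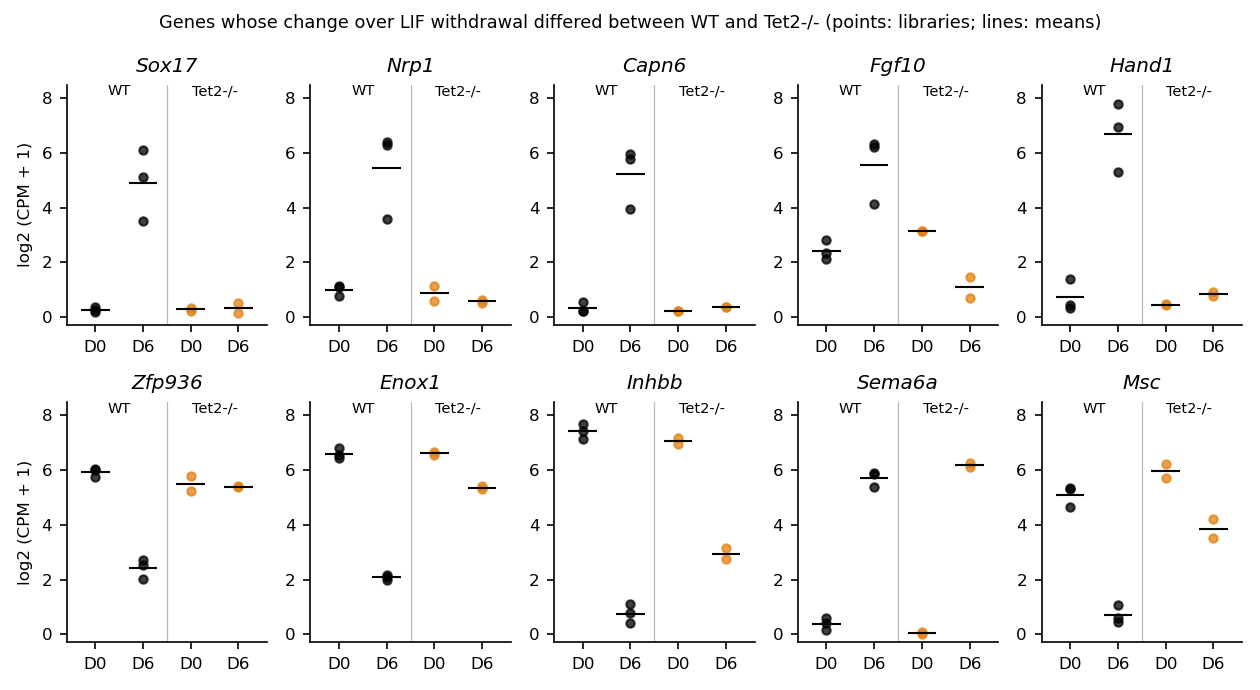
Level as log2 of CPM plus 1 (y axis) at D0 and D6 in WT (black, 3 clones a day) and Tet2-/- (orange, 2 clones a day) for the 5 genes whose change was most positive and the 5 whose change was most negative in WT relative to Tet2-/-; each point is a library and each line a mean. In the upper row the WT libraries are higher at D6 and the Tet2-/- libraries stay near 0, except Fgf10, whose mean is 7.79 CPM at D0 and 1.21 CPM at D6; in the lower row WT is lower at D6 than Tet2-/-, and Sema6a is higher at D6 than at D0 in both.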

How the data were processed

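Poly(A) RNA-seq of 6 WT libraries (3 clones at each of day 0 and day 6) was analysed within the 24 libraries of the series. The authors aligned reads with STAR 2.5.1 to mm9, per the submitters' processing notes, which also name DESeq2, and deposited raw read counts for each RefSeq line, with 1 table a day. The counting strand is not given in the sources used here, so overlapping and antisense genes are uncertain. Of 31928 lines the first line of each of 22926 symbols was kept (4911 symbols had several lines), and genes with at least 10 counts in enough libraries (filterByExpr) were tested. ERCC spike-ins, used in the study's scaling, were not used here (0 such lines), and TMM scaling took their place, so that a change in total RNA per cell cannot be measured and folds are relative to the other genes.

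Groups follow the labels, and clones were matched by name, since replicate numbers in the titles give O4.1 and O4.2 in opposite order on the days. A quasi-likelihood model (edgeR 4.0.16, R 4.3.3) with a mean for each genotype and day was fitted to all 24 libraries (14 residual degrees of freedom), with Benjamini-Hochberg adjustment over all genes; the script was tested on simulated data. Deviations from the group means gave r = 0.116, 0.174 and 0.103 across genes within O4.1, O4.2 and O4.13. Between different clones r was -0.167 to 0.112, so these ranges overlap and do not settle the pairing. The main fit leaves the clone out, and values with clone as a block are given where they change a call. Where the 3 libraries of a day had no read, the fold is a lower bound, the CPM of the counts summed over the other day over that of 3 counts in all (0.0415 CPM at D0); with 1 to 3 counts the ratio of counts has an exact 95% interval. Intervals and bounds cover counting error only.

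The genes named are the 10 with the largest rise and fall at 10 CPM or more, the 5 with the largest gain and loss in CPM, the 5 largest Tet2-/- interactions in each direction, and members of 40 lists. Some members are counted in their lists but not reported here by name. Members and lists were chosen with earlier results of these data known. Other tools, scalings, filters, line choices, the block and single left-out libraries were tried. Promoters are from RefSeq (GRCm38.p6), with 11525 of the tested genes matched by symbol. Python 3.11.15, pandas 2.3.3 and matplotlib 3.10.9 were used.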

Additional observations from a re-analysis of the deposited data

Results flagged for a closer look

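The change over LIF withdrawal differed between WT and Tet2-/- clones by the interaction test for 803 genes with a more positive log2 fold change in WT and 554 with a more negative one (differences over 2-fold, edgeR adjusted p below 0.05). The 5 named genes with a more positive change in WT were Sox17 (7.14), Nrp1 (6.70), Capn6 (6.64), Fgf10 (6.31) and Hand1 (6.30), on the log2 scale. The 5 with a more negative change in WT were Zfp936 (-3.64), Enox1 (-3.63), Inhbb (-3.62), Sema6a (-3.50) and Msc (-3.48). Each Tet2-/- group holds 2 clones, and the cause of these differences was not tested.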

How the results depend on the processing

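Of 240 genes chosen by the naming rule, 211 kept the direction and side of the threshold of their change from D0 to D6 under every alternative computed for them (24 alternatives were run in all), and none reversed. Of the 10 genes named for the Tet2-/- interaction 7 lost that call under at least 1, and 14 other genes of the text changed their call under at least 1 alternative. The genes higher and lower at D6 numbered 3264 and 1934 with DESeq2, 2947 and 1831 in a fit to the 6 WT libraries alone, 3384 and 2151 with no filter on low counts, and 3231 and 2106 with clone as a replicate block. Leaving out single libraries gave 3109 to 3321 higher and 1792 to 2301 lower. Without the 2-fold limit 5234 were higher and 5132 lower, and 2499 differed between WT and Tet2-/-. Library totals in place of TMM moved the median of all genes to 0.16 and gave 3661 higher and 1676 lower (31.4% of calls lower against 39.0%); calls were then lost by 13 genes of the rule and by Ddx4 (-0.87) and Uqcrc1 (-0.90), the 13 including Tet1 (-1.41), Tdgf1 (-0.97), Rrm2 (-0.94), Pim3 (-0.995), Lefty2 (-0.91), Hsp90aa1 (-0.89), Mtf2 (-0.86) and Zeb1 (-0.94). Among lists, the WT libraries alone gave 8 of the 18 Hox rises, library totals 5 of the 10 respiratory chain falls, 2 of the 4 Nodal falls, 0 of the 2 p53 target falls, 1 of the 2 falls each of the cardiac, polycomb and glycolysis lists, 5 polycomb rises in place of 3 and 2 germline rises in place of 1. The Tet1-/- interaction had 12 genes with DESeq2 and 0 to 7 when single libraries were left out: 6 without O4.2 at D0, 7 without it at D6 and 1 without clone 2.2. The Tet2-/- interaction ranged from 408 to 2096 when single libraries were left out and was 1618 with the replicate block. Clone as a block ended calls among the named genes, those of Osmr, Lefty2, Hk1 and Apom included, and let Dppa3, Cdh5 and Lum pass as higher. The cause of these shifts was not tested. Depth limits genes below about 1 CPM, such as most Hox, protocadherin and Zscan4 genes.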

Other observations

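Interferon-inducible genes were examined after their values were seen, because 3 of them stood among the 10 largest rises. Of 45 tested, 31 rose and 3 fell (median 2.62), beside 20.7% higher and 13.3% lower over all genes tested. At D6 O4.2 was below both other clones for 30 of the 45 and above both for 5. Over all 15639 tested genes it was below both for 6578 and above both for 5938. The counts of genes that rose and fell were the same without that library. Irf1, a transcription factor that induces antigen presentation, was at 15.8, 13.2 and 17.7 CPM at D0 and 88.5, 96.5 and 102 CPM at D6 in clones O4.1, O4.2 and O4.13. Gbp3, a guanylate-binding protein, was at 0.0404, 0.0411 and 0.130 CPM at D0 and 36.1, 32.8 and 39.6 CPM at D6. Both days were well apart in each clone. The interferon signal transducer Stat2 (0.95 ± 0.22) was not called, although it passed as higher without O4.1 at D0 (1.05) and with library totals in place of TMM (1.10), and Irf9 was at 14.7, 12.8 and 13.3 CPM at D0 and 10.7, 8.67 and 9.45 CPM at D6. Oas1a went the other way, from 17.2, 20.8 and 19.6 CPM to 2.92, 4.46 and 3.34 CPM, and Oasl1 and Xaf1 fell as well. Guanylate-binding protein genes are similar enough to share reads.

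A pair of other families were also noticed after their values were seen. Of 10 tested Nlrp genes, several of which act in the oocyte, 7 fell and 1 rose (0 without O4.1 or O4.13 and 2 without O4.2 at D0; median -2.02); Nlrp4a went from 10.2, 11.4 and 8.46 CPM to 0.656, 2.87 and 0.382 CPM. Of 18 tested Rgs genes, which switch off G protein signalling, 13 rose (11 without O4.2 at D6) and 1 fell (0 without O4.13 at D6; median 1.498); Rgs16 went from 2.91, 3.37 and 2.81 CPM to 37.4, 18.0 and 27.6 CPM.

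Y-linked genes were compared between the days. Of 4 examined, O4.2 was above both other clones at D6 for 3, and for Kdm5d, at 0.0808, 0.987 and 0.605 CPM at D0 and 0.403, 1.05 and 2.74 CPM at D6, O4.13 was the highest at D6. Ddx3y was at 5.01, 125 and 19.6 CPM at D0 and 18.0, 82.0 and 40.6 CPM at D6, and Eif2s3y at 6.58, 65.7 and 17.1 CPM at D0 and 16.7, 79.3 and 33.3 CPM at D6, so that O4.2 was the highest and O4.1 the lowest at both days for both genes. The cause of this difference between clones of 1 line was not tested.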
